A study of Arabidopsis thaliana with 6 samples.

Results

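The 10 genes described here encode enzymes at the entrance of the shikimate pathway and along the branch from chorismate to tryptophan. They were taken by locus identifier from the 32678 genes of the deposited count table. They are DHS1 (AT4G39980), DHS2 (AT4G33510), the EPSP synthase gene (AT2G45300, EPSPS), ASA1 (AT5G05730), ASB1 (AT1G25220), PAT1 (AT5G17990, also TRP1), IGPS (AT2G04400), TSA1 (AT3G54640), TSB1 (AT5G54810) and TSB2 (AT4G27070). Polyadenylated leaf RNA of Arabidopsis thaliana was sequenced in 6 libraries, 3 from wild-type Col-0 and 3 from 35S:RPS4 plants, whose genotype label reads Col-0 35S:RPS4-HS. Growth lasted 3.5 weeks at 28 °C in both groups, and leaves were collected 2 h after a move to 19 °C. RPS4 is an intracellular immune receptor of the TIR-NLR class, and the 35S promoter of the transgene is active in most plant tissues rather than in a chosen cell type. Libraries from before the move were not analysed here, so a difference that preceded it cannot be told apart from one that followed it.

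Shikimate synthesis takes place in the plastid and leads through chorismate to tryptophan, phenylalanine, tyrosine, salicylic acid and folate. DAHP synthase, encoded by DHS1 and DHS2, joins phosphoenolpyruvate to erythrose 4-phosphate in the opening step, and EPSP synthase, the target of glyphosate, acts just before chorismate synthase. Anthranilate synthase then commits chorismate to tryptophan. Its alpha subunit (ASA1) makes anthranilate and its beta subunit (ASB1) supplies ammonia from glutamine. PAT1 adds phosphoribosyl to anthranilate, IGPS closes the indole ring, the tryptophan synthase alpha subunit (TSA1) releases indole and the beta subunits (TSB1 and TSB2) join it to serine. In Arabidopsis leaves tryptophan also feeds indole glucosinolates and the phytoalexin camalexin, defence compounds made through the cytochromes CYP79B2 and CYP79B3.

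Each library held between 28659022 and 31007551 counts in genes. The RPS4 transcript had 668, 884 and 978 counts in Col-0 replicates 1 to 3 and 18033, 22372 and 24807 in 35S:RPS4 replicates 1 to 3, a log2FC of 4.81 (SE 0.22, 95% interval 4.29 to 5.32, FDR = 3.3e-05). The mesophyll genes RBCS1A, CAB1, CA1 and RCA had group means of 3616 to 20926 CPM (scaled read counts), while the root genes CASP1, COBL9, EXPA7 and RHD6 had 0 to 5 counts per group. None of the 9 mesophyll, guard cell, phloem and epidermis markers was called. The guard cell gene KAT1 had a log2FC of 0.45 (FDR = 0.0204) and FAMA 0.17 (FDR = 0.348), each higher in every 35S:RPS4 library, and the epidermal genes ATML1 and FDH had -0.41 (FDR = 0.178) and -0.17 (FDR = 0.360). Their part in the values of the 10 genes was not tested. 35S:RPS4 replicate 1 stood nearer to Col-0: over the 1188 genes raised in 35S:RPS4 its level was at the median 0.630 of the mean of the other 35S:RPS4 libraries, against 0.977 over all 18382 tested genes. In these bulk libraries fewer cells of a type and less RNA per cell cannot be told apart.

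On TAIR10.1 the 10 genes are spread over chromosomes 1 to 5. ASA1 lies at chr5:1719533-1722933 and ASB1 at chr1:8836835-8839609, each with 8 exons after merging of isoforms. TSA1 lies at chr3:20223034-20225523, TSB1 at chr5:22264594-22266902 and TSB2 at chr4:13586268-13588897. PAT1 lies at chr5:5957080-5960201, IGPS at chr2:1531148-1533737, DHS1 at chr4:18539511-18542122, DHS2 at chr4:16116371-16118825 and EPSPS at chr2:18677311-18681889.

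Promoters are shown for 4 genes of anthranilate synthase and tryptophan synthase, among them ASB1 and TSB2, whose levels differed most and least from Col-0 within the tryptophan branch. Each is the 250 bases before the gene start annotated by RefSeq on TAIR10.1, 5′ to 3′ on the strand of the gene. Capitals mark the W-box, searched as TTGACC or TTGACT on both strands, the core bound by WRKY factors. The genes are ASB1 at chr1:8839610-8839859, ASA1 at chr5:1722934-1723183 and TSA1 at chr3:20225524-20225773, all on the minus strand, and TSB2 at chr4:13586018-13586267 on the plus strand.
ASB1: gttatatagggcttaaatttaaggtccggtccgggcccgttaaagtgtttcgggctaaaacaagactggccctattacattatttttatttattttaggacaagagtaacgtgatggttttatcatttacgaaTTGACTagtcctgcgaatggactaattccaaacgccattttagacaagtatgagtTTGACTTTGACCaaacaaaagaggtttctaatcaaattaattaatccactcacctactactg
ASA1: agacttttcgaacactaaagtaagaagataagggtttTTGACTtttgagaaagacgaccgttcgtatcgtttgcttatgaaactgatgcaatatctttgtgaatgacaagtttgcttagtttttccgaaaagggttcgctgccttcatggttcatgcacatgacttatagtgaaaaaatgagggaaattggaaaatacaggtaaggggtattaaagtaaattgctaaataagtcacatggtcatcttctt
TSA1: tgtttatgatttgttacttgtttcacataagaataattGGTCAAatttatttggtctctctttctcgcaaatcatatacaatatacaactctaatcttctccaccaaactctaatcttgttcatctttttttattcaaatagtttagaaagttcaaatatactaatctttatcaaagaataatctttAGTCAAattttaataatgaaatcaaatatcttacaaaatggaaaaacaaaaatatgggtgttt
TSB2: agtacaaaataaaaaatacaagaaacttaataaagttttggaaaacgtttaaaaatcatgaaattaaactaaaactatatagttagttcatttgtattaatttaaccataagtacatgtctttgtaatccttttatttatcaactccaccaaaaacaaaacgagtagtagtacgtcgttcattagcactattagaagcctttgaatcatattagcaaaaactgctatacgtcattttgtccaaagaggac

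Promoters were searched for 9 of the 10 genes. A W-box stood in the window of 5 of these 9, namely ASA1, ASB1, PAT1, IGPS and TSA1, against 28.4% of 27443 protein-coding promoters of this length. ASB1 held 3, of which a pair abut at -62 and -56 and the other starts at -117. TSA1 held matches at -212 and -63, both on the opposite strand, and ASA1 held 1 at -213. No W-box was found before TSB2, DHS1, DHS2 or EPSPS. The G-box CACGTG, bound by bZIP and bHLH factors, occurred before EPSPS and IGPS, and in 6.49% of all promoters. The paper gives CGyG, with y for C or T, as the core bound by CAMTA factors. Only its CGCG form was searched, which occurred before 0 of the 9 genes and in 2783 of the 27443 promoters. The CGTG form was not counted, and it is present in the ASB1 promoter above and within CACGTG. These matches describe letters in a window and say nothing about binding.

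In 35S:RPS4 leaves ASB1 was the only 1 of the 10 genes that passed the study's thresholds, a false discovery rate (FDR) below 0.01 and an absolute log2FC above 1. Its level was 2.06 times that of Col-0. ASA1, TSA1 and TSB1 stood 1.55 to 1.72 times above Col-0 without reaching the fold threshold. PAT1 stood at 1.23 times, and DHS1, DHS2, EPSPS, IGPS and TSB2 between 0.98 and 1.18 times the Col-0 level. The count of 1 raised gene in 10 compares with 6.46% raised among all tested genes, and 0 of the 10 genes were lowered in edgeR's quasi-likelihood test, against 1.37% of all tested genes. At an unadjusted p below 0.05, 5 of the 10 members were higher and 0 lower in 35S:RPS4, beside 14.9% of all tested genes higher and 13.1% lower. DESeq2 and limma voom also called 1 raised and 0 lowered. The median log2FC of the 10 genes was 0.27, beside 0.01 over all tested genes.

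**Figure D1:**
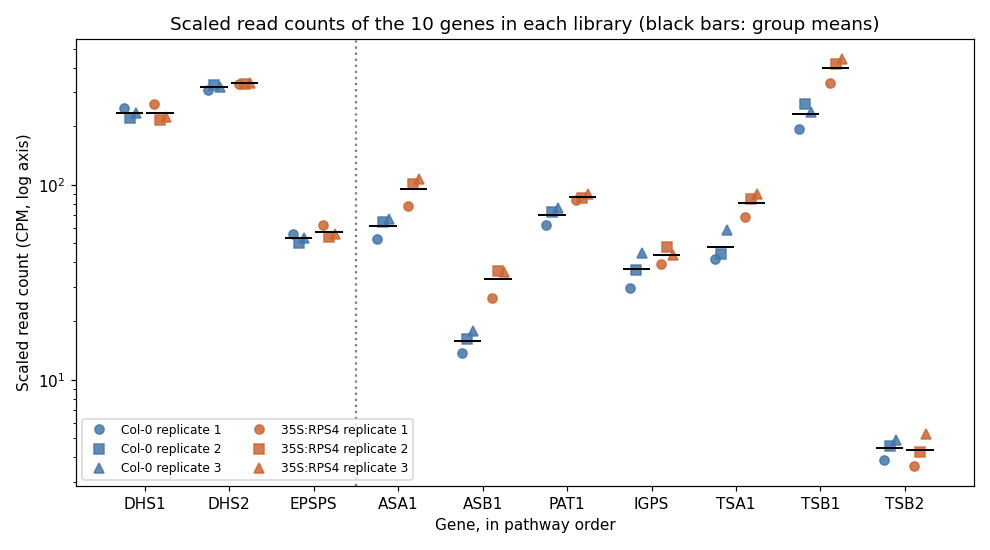
Scaled read counts (CPM, log axis) of the 10 genes in pathway order, with 1 point per library, marker shapes for replicate numbers and black bars for group means. The dotted line parts the shikimate genes from the tryptophan branch, where ASA1, ASB1, PAT1, TSA1 and TSB1 have all 35S:RPS4 points above all Col-0 points.

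At the entrance of the pathway, DHS1 had 248, 221 and 233 CPM in Col-0 replicates 1 to 3 and 260, 216 and 223 CPM in 35S:RPS4 replicates 1 to 3. The groups overlapped, with 35S:RPS4 holding both the highest and the lowest library, and the log2FC was -0.01 (SE 0.09, 95% interval -0.22 to 0.21, FDR = 0.973). DHS2 had 308, 326 and 317 CPM in Col-0 and 330, 331 and 333 CPM in 35S:RPS4. Every 35S:RPS4 library lay above every Col-0 library, by little: the log2FC was 0.06 (SE 0.06, 95% interval -0.08 to 0.21, FDR = 0.581), and it turned to -0.11 with upper-quartile scaling. EPSPS had 56.1, 50.1 and 53.3 CPM in Col-0 and 62.4, 54.2 and 55.6 CPM in 35S:RPS4. Here too the groups overlapped, with a log2FC of 0.11 (SE 0.08, 95% interval -0.08 to 0.31, FDR = 0.459) that was -0.066 with upper-quartile scaling. With that scaling the median of all tested genes was -0.17, below both DHS2 and EPSPS. For these 3 genes the 95% intervals leave room for no more than a 1.24-fold higher level in 35S:RPS4.

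DHS1 and DHS2 were read at 6100 to 10252 counts per library and EPSPS at 1485 to 1860. Across Col-0 libraries the coefficient of variation was 5.57% for DHS1, 2.87% for DHS2 and 5.67% for EPSPS. The tryptophan genes varied more, from 9.75% for PAT1 to 20.6% for IGPS.

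The anthranilate synthase subunits both stood higher in 35S:RPS4. ASB1 had 431, 481 and 573 counts in Col-0 and 782, 1064 and 982 counts in 35S:RPS4, which is 13.7, 16.2 and 17.7 CPM against 26.2, 36.1 and 35.9 CPM. The lowest 35S:RPS4 library, replicate 1, still exceeded the highest Col-0 library. The log2FC was 1.05 (SE 0.15, 95% interval 0.69 to 1.40, FDR = 0.0029), or 2.06-fold with an interval of 1.61 to 2.65. ASA1 had 52.6, 64.3 and 66.7 CPM in Col-0 and 78.0, 101 and 107 CPM in 35S:RPS4. Its groups did not overlap, and its log2FC was 0.63 (SE 0.14, 95% interval 0.30 to 0.96, FDR = 0.0196), under the fold threshold and short of the FDR threshold.

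The call of ASB1 lay close to both thresholds. Under 2 other scalings its log2FC was 0.86 (upper quartile) and 0.88 (plain library size), and the median of all tested genes was then -0.17 and -0.16. With DESeq2 size factors the log2FC of ASB1 was 1.04 (FDR = 0.0030), and the call stayed. Leaving out Col-0 replicate 1 gave a log2FC of 0.94. The FDR was 0.0163 when Col-0 replicate 2 was dropped and 0.0106 when replicate 3 of Col-0 was dropped. It was 0.0150 when 35S:RPS4 replicate 2 was dropped, with a log2FC of 0.97, and 0.0144 when replicate 3 of 35S:RPS4 was dropped, also with 0.97. Leaving out 35S:RPS4 replicate 1 gave 1.17 (FDR = 3.2e-04). Of the 50-base windows in ASB1 exons, 42.1% recur exactly elsewhere, chiefly in AT1G24807, AT1G24909, AT1G25155 and AT1G25083, copies on chromosome 1 with 97.3% coding identity. These 4 copies had 0 counts in every library. Reads with more than 1 alignment made 5.08 to 6.97% of all counts per library and enter no gene, so the ASB1 count rests on the rest of the transcript and a share from the copies was not measured. At its end ASB1 also overlaps AT1G25211, whose own counts summed to 367 for Col-0 and 342 for 35S:RPS4.

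The middle steps differed less. PAT1, the phosphoribosyltransferase, had 62.5, 72.3 and 75.7 CPM in Col-0 and 83.4, 85.9 and 89.6 CPM in 35S:RPS4. Its groups did not overlap, with a log2FC of 0.30 (SE 0.09, 95% interval 0.09 to 0.50, FDR = 0.0572). IGPS, the enzyme that forms indole-3-glycerol phosphate, had 29.6, 36.7 and 44.8 CPM in Col-0 and 39.3, 48.0 and 43.8 CPM in 35S:RPS4. Its groups overlapped, with Col-0 replicate 3 above 2 of the 35S:RPS4 libraries, and the log2FC was 0.24 (SE 0.16, 95% interval -0.13 to 0.60, FDR = 0.384). It was 0.090 with Col-0 replicate 1 left out, 0.40 with Col-0 replicate 3 left out and 0.059 with upper-quartile factors.

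At tryptophan synthase the alpha subunit and the main beta subunit stood apart from Col-0 by similar factors. TSA1 had 41.4, 44.2 and 58.5 CPM in Col-0 and 68.0, 84.8 and 89.3 CPM in 35S:RPS4, with a log2FC of 0.75 (SE 0.16, 95% interval 0.38 to 1.12, FDR = 0.0162). TSB1 had 194, 260.1 and 238 CPM in Col-0 and 332, 415 and 441 CPM in 35S:RPS4, with a log2FC of 0.78 (SE 0.14, 95% interval 0.45 to 1.12, FDR = 0.0085). Neither gene's groups overlapped, and TSB1 passed the FDR threshold without the fold threshold. That pass was narrow: its FDR was 0.0130 with upper-quartile factors, 0.0122 with plain library size, 0.0137, 0.0153 and 0.0373 when Col-0 replicate 1, 2 or 3 was left out, and 0.0400 and 0.0362 when 35S:RPS4 replicate 2 or 3 was. TSB2, whose coding sequence is 85.4% identical to that of TSB1, had 122, 136 and 158 counts in Col-0 and 108, 125 and 144 counts in 35S:RPS4. That is 3.87, 4.59 and 4.88 CPM against 3.62, 4.24 and 5.26 CPM, overlapping groups with a log2FC of -0.02 (SE 0.18, 95% interval -0.44 to 0.39, FDR = 0.956). None of the 50-base windows of TSB1 or TSB2 recurs elsewhere in the genome, so their reads could be kept apart.

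**Figure D2:**
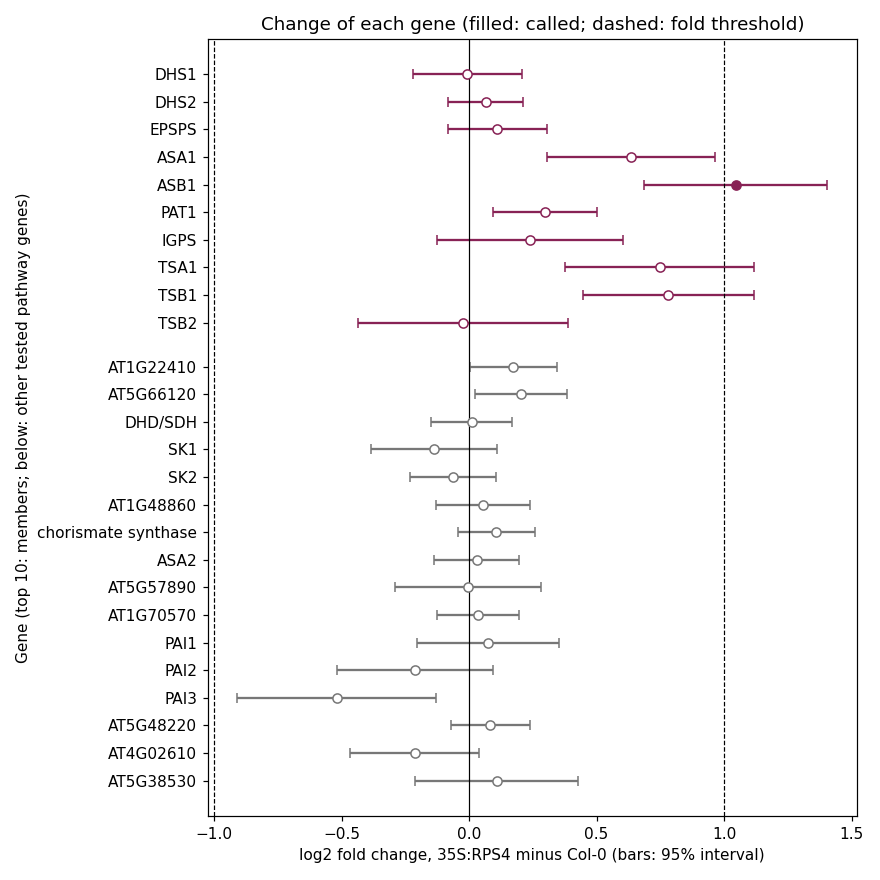
Fitted log2 fold change (35S:RPS4 minus Col-0) with its 95% interval for the 10 genes and, in grey, the 16 other tested genes of the shikimate and tryptophan routes. ASB1 is the only filled point, and the grey points run from -0.52 (PAI3) to 0.20 (AT5G66120).

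With no fold threshold, ASB1 and TSB1 were the 2 members with an FDR below 0.01, beside 7.53% of all genes that were higher and 2.59% that were lower in this way. Groups did not overlap for 6 of the 10 genes, all higher in 35S:RPS4, against 17.9% of tested genes higher and 16.3% lower in every library. These 6 comprised DHS2 and 5 of the 7 tryptophan genes.

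Libraries of replicate number 1 deviated together from their group means, with a correlation of 0.49. Number 2 gave 0.21 and number 3 gave 0.32, beside 0.21 and 0.20 between numbers 2 and 3, which were hardly told apart. The number was also fitted as a block, though no label states a pairing. In that fit 5 members had an FDR below 0.01 with no fold threshold, beside 10.3% of all genes that were higher. They were ASB1 (FDR = 2.3e-05), TSB1 (4.6e-05), ASA1 (9.2e-05), TSA1 (1.6e-04) and PAT1 (0.0087), and ASB1 was again the only 1 past the fold threshold, with a log2FC of 1.04. Divided by the Col-0 library of its own number, the 35S:RPS4 level of ASB1 was 1.92, 2.23 and 2.03 times higher for numbers 1, 2 and 3. The same folds were 1.48, 1.56 and 1.60 for ASA1, 1.71, 1.60 and 1.86 for TSB1, and 1.64, 1.92 and 1.53 for TSA1. PAT1 had 1.33, 1.19 and 1.18. IGPS had 1.33, 1.31 and 0.978, so its pair of number 3 did not share the direction of the others. DHS1, DHS2, EPSPS and TSB2 kept between 0.925 and 1.11 in every pair.

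**Figure D3:**
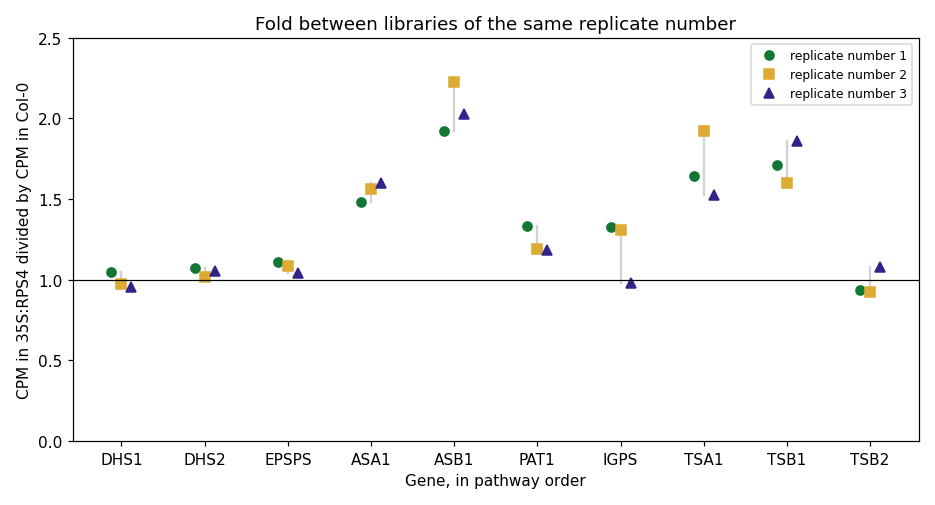
CPM in 35S:RPS4 divided by CPM in the Col-0 library of the same replicate number, for the 10 genes in pathway order. ASA1, ASB1, PAT1, TSA1 and TSB1 lie above 1 for all 3 numbers, between 1.18 and 2.23, while DHS1, DHS2, EPSPS and TSB2 lie close to 1.

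In both groups replicate 1 was the lowest library for the tryptophan genes and for DHS2. Col-0 replicate 1 was the lowest Col-0 library for 8 of the 10 genes, all but DHS1 and EPSPS. That held for 39.2% of all tested genes and 59.4% of the 1188 raised genes. 35S:RPS4 replicate 1 was the lowest of its group for the same 8 genes, against 43.1% of all tested genes and 94.5% of the raised genes. For ASB1 it held 0.729 of the mean of the other 35S:RPS4 libraries, for ASA1 0.753, for TSB1 0.775 and for TSA1 0.781. For PAT1 it held 0.950 and for DHS2 0.994, close to that mean. In Col-0 replicate 3, TSA1 stood at 1.37 and IGPS at 1.35 times the mean of the other Col-0 libraries, where the median of all tested genes was 0.999. What set these libraries apart was not tested.

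Levels of different genes were compared per kilobase of merged exon. In Col-0 they ran from DHS2 with 147 ± 4.20 CPM per kilobase (SD, n = 3) through TSB1 with 129 ± 18.8 and DHS1 with 116 ± 6.49 down to TSB2 with 2.22 ± 0.260. The ranges of DHS2 and TSB1, and of TSB1 and DHS1, overlapped. PAT1 (33.3 ± 3.25), TSA1 (33.0 ± 6.29), ASA1 (27.8 ± 3.43) and IGPS (25.9 ± 5.35) formed a run in which each overlapped the next. EPSPS followed with 15.1 ± 0.857 and ASB1 with 9.93 ± 1.28, each clear of its neighbours. The value of EPSPS depends on its annotated exons, which total 3514 bases against 1563 coding bases, and that of ASB1 leaves out reads shared with its copies. AT1G48860, with 91% coding identity to EPSPS, had 29.0 ± 1.93 CPM per kilobase in Col-0, so the EPSPS value is that of AT2G45300 alone.

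In 35S:RPS4 the order of these levels differed at the top. TSB1 led with 222 ± 32.0 CPM per kilobase (SD, n = 3), above DHS2 with 153 ± 0.729 in 3 of 3 libraries and without overlap, whereas in Col-0 it had stood below DHS2 in 3 of 3 libraries. TSA1 came next among the tryptophan genes with 55.4 ± 7.70, ahead of ASA1 with 43.1 ± 6.85 and PAT1 with 41.0 ± 1.49. ASB1 with 20.5 ± 3.53 moved to the range of EPSPS with 16.3 ± 1.24, which it overlapped.

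Ratios between genes of a library do not depend on how libraries are scaled, and 9 pairs were compared. With 3 libraries against 3 the smallest two-sided p of an exact permutation test is 0.10, so no pair could pass 0.05. Adjusted p-values are over the 9 pairs. TSB1 exceeded TSB2 by a log2 count ratio of 5.69 ± 0.117 (SD, n = 3) in Col-0 plants and 6.51 ± 0.112 with the transgene, a difference of 0.81 (exact permutation p = 0.10, adjusted 0.18). Per kilobase TSB2 made up 1.70% ± 0.132 of the pair in Col-0 and 0.974% ± 0.0755 in 35S:RPS4. The log2 ratio of TSA1 to TSB1 was -2.27 ± 0.270 in Col-0 and -2.30 ± 0.00983 in 35S:RPS4, a difference of -0.03 (exact permutation p = 0.80, adjusted 0.80). Against AT4G02610, the other gene of the alpha subunit family with 73% coding identity, the log2 ratio was 2.68 ± 0.159 for Col-0 and 3.65 ± 0.207 for 35S:RPS4 (exact permutation p = 0.10, adjusted 0.18). Set against TSB2, TSA1 gave 3.42 ± 0.158 and 4.21 ± 0.120 (exact permutation p = 0.10, adjusted 0.18).

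The anthranilate synthase pairs stood apart from Col-0 in the same sense. ASA1 made up 57.1% ± 2.44 (SD, n = 3) of the summed level of ASA1 and ASA2 per kilobase in Col-0 and 66.8% ± 3.5 in 35S:RPS4. The log2 count ratio of the pair was 0.60 higher in 35S:RPS4 (exact permutation p = 0.10, adjusted 0.18), with ASA2 itself at a mean of 49.7 CPM for Col-0 and of 50.7 CPM for 35S:RPS4. ASB1 made up 52.6% ± 3.57 of the sum with AT5G57890, a glutamine amidotransferase gene of 95.3% coding identity, in Col-0 and 69.4% ± 4.39 in 35S:RPS4. That log2 ratio was 1.04 higher in 35S:RPS4 (exact permutation p = 0.10, adjusted 0.18), and AT5G57890 had 10.6 CPM in each group. For both pairs the ratios of the groups did not overlap. Some 50-base windows of ASB1 exons recur in AT5G57890 as well as in the copies on chromosome 1. Reads that align to both enter neither count, while the level per kilobase uses the full exon length. The shares of ASB1 and AT5G57890 are thus not a measured split of the pair.

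The proportions of the DAHP synthase genes overlapped between groups. DHS2 made up 44.4% ± 2.14 of the summed level per kilobase in Col-0 and 44.5% ± 1.33 in 35S:RPS4, DHS1 35.2% ± 1.27 and 33.5% ± 2.43, and AT1G22410, a Class-II DAHP synthetase family gene, 20.4% ± 0.869 and 22.1% ± 1.11 (SD, n = 3). The log2 ratios among them differed between groups by -0.08 for DHS1 over DHS2, -0.19 for DHS1 over AT1G22410 and -0.11 for DHS2 over AT1G22410 (exact permutation p from 0.30 to 0.50, adjusted 0.45 to 0.56).

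**Figure D4:**
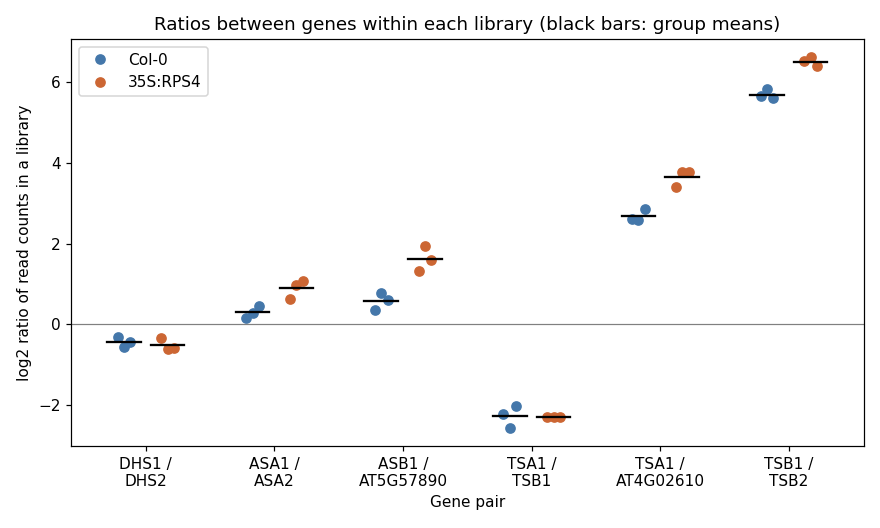
Log2 ratio of read counts between 2 genes within each library for 6 of the 9 pairs, with 3 points per group and black bars for group means. ASA1, ASB1, TSA1 and TSB1 stand higher against the second gene of their family in 35S:RPS4, while DHS1 over DHS2 and TSA1 over TSB1 overlap between groups.

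The other genes of the pathway came from a list of 22, of which 16 had enough counts to be tested. By edgeR 0 of the 16 were raised and 0 lowered, as by DESeq2 and limma voom, and at an unadjusted p below 0.05 there were 2 higher and 1 lower, shares under the 14.9% and 13.1% over all tested genes. Their median log2FC was 0.03, against 0.27 for the 10 genes above. The 7 other shikimate genes, AT1G22410 among them, ran from -0.14 for SK1, a shikimate kinase, to 0.20 for AT5G66120, the dehydroquinate synthase gene (FDR = 0.134). Among the 9 tested tryptophan genes PAI3, a phosphoribosylanthranilate isomerase gene, stood lowest at -0.52 (SE 0.17, FDR = 0.0786), with PAI1 at 0.07 and PAI2 at -0.21. Histidine synthesis, a plastid pathway that also draws on phosphoribosyl donors, had 9 tested genes between -0.02 and 0.16, 0 raised and 0 lowered by edgeR, DESeq2 or limma voom and 0 at an unadjusted p below 0.05, a threshold passed by 5148 of all 18382 tested genes.

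Genes that draw on chorismate or tryptophan, and MYB factors of the indole branch, gave the surroundings of these values. CYP79B2 stood higher in 35S:RPS4 by a log2FC of 3.27 (SE 0.19, FDR = 7.4e-05) and CYP79B3 by 1.51 (SE 0.20, FDR = 0.0023). However, CYP79B3 had an FDR of 0.0148 without Col-0 replicate 2 and 0.0119 without 35S:RPS4 replicate 2. The auxin route genes TAA1 (-0.71, FDR = 0.324) and TAR2 (-0.20, FDR = 0.504) were not called. MYB51, a regulator of indole glucosinolate genes, stood higher in 35S:RPS4 by 5.93 (SE 0.26, FDR = 2.8e-05). MYB34, a regulator of tryptophan genes, had -1.55 (SE 0.32, FDR = 0.0157), which the block moved to an FDR of 7.7e-04. On the phenylalanine and tyrosine side 2 of 12 genes were raised, beside 6.46% of all tested genes. They were the arogenate dehydratase genes ADT4 (3.70, FDR = 3.0e-04) and ADT5 (1.11, FDR = 6.3e-04). However, the FDR of ADT4 was 0.0260 with the block, and the log2FC of ADT5 was 0.93 with upper-quartile factors. ADT3 had -0.99 (FDR = 0.0024) and ADT6 -1.10 (FDR = 0.0116). Both were lowered in the fit with the block, as were 330 of all 18382 tested genes. ICS1, which starts salicylic acid synthesis from chorismate, had 1.11 (FDR = 0.0124, and 0.0042 with the block).

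**Figure D5:**
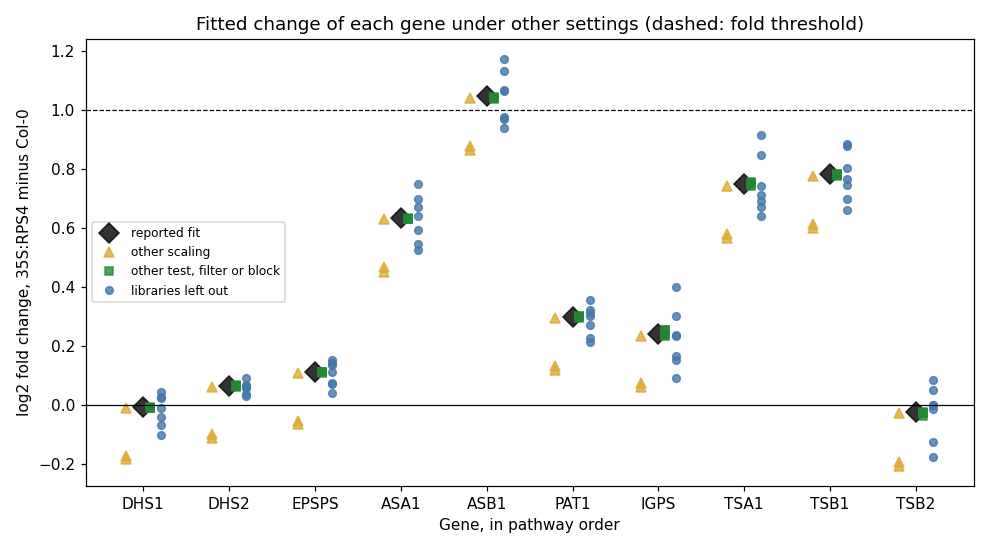
Fitted log2 fold change (35S:RPS4 minus Col-0) of the 10 genes in the reported fit and under other scalings, other tests, filters or the block, and with libraries left out. ASB1 crosses the dashed fold threshold of 1 both ways, from 0.86 to 1.17, while DHS1, DHS2, EPSPS and TSB2 lie on both sides of 0.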

How the data were processed

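Reads per gene were deposited by the authors as raw counts, 1 column per library, with no normalization. Per the labels, RNA was polyadenylated and libraries were made with the TruSeq RNA v2 kit, so strand was not kept. The submitters' processing notes name TAIR10, FastQC 0.11.2, TopHat2 2.0.10 and HTSeq without settings. Non-gene entries, 6.45 to 8.30% of a library, were left out.

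The main test was edgeR 4.0.16 under R 4.3.3 (TMM, default filter on low counts, robust quasi-likelihood fit, genotype as sole term), two-sided, and called at an FDR (Benjamini-Hochberg over 18382 genes) below 0.01 and an absolute log2FC above 1. Positive log2FC means higher in 35S:RPS4. The fit was tested on simulated data with planted changes above the fold threshold and no shared deviation of same-numbered libraries. Smaller changes were not simulated. DESeq2 1.42.0, limma 3.58.1 and other settings were alternatives. Ratios were tested with exact permutation in scipy 1.17.1. Genes were named if they were members, relatives of members, RPS4, or called or range-setting genes of listed pathways. Members and lists were chosen with earlier results of these data known. Labels do not say whether replicates were separate plants, and the p-values cover only how these libraries varied. Same-numbered libraries correlated in their deviations from group means at 0.49, 0.21 and 0.32 for numbers 1 to 3. Libraries of other numbers gave -0.39 to 0.21, with 0.21 and 0.20 between numbers 2 and 3, which were thus hardly told apart. No label states a pairing. Whether PCR duplicates were removed is not given in the sources used here. Symbols and coordinates came from RefSeq TAIR10.1. The promoter of 1 member is not reported here.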

Additional observations from a re-analysis of the deposited data

How the results depend on the processing

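The count of 1 raised gene among the 10 became 0 with upper-quartile factors and with plain library size, and 2 at an FDR below 0.01 with no fold threshold. It ran from 0 to 1 with 1 library left out, and was 0 in each case but that of 35S:RPS4 replicate 1. The genes lowered among the 10, and the other shikimate and tryptophan genes raised and lowered, stayed at 0 under every alternative run. With no fold threshold the members past the FDR threshold ranged from 0 (without Col-0 replicate 2, 35S:RPS4 replicate 2 or 35S:RPS4 replicate 3) through 1 (without Col-0 replicate 1 or 3, or with upper-quartile factors or plain library size) to 4 (without 35S:RPS4 replicate 1, without both libraries of replicate number 1, or by DESeq2) and 5 (with the replicate block).

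All tested genes lowered numbered 251, against 391 with upper-quartile factors, 377 with plain library size, 404 without both libraries of replicate number 1, 476 with no fold threshold, 381 at an FDR below 0.05 and 99 to 337 with 1 library left out, lowest without Col-0 replicate 3 and highest without 35S:RPS4 replicate 1. It was 105 when Col-0 replicate 2 was dropped, and 108 and 128 when replicate 2 or 3 of 35S:RPS4 was. The 1188 raised genes ran from 841 to 1374 with 1 library left out and numbered 1442 without both libraries of replicate number 1. With no fold threshold 1385 genes were higher and 476 lower, against 1303 and 1024 with upper-quartile factors and 1277 and 962 with plain library size. The replicate block gave 1329 raised and 330 lowered genes, and 1 raised and 0 lowered among the 10.

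Signs turned only for values near 0. With 1 library left out DHS1 ran from -0.10 to 0.044, above 0 without Col-0 replicate 1 (0.026), 35S:RPS4 replicate 2 or 35S:RPS4 replicate 3 (0.023). DHS2 was -0.11 with upper-quartile factors and -0.10 with plain library size, and EPSPS -0.066 and -0.054. The median of all tested genes was -0.17 and -0.16 under these scalings. TSB2 ran from -0.18 to 0.084, above 0 without Col-0 replicate 2 (1.2e-05), replicate 3 of Col-0 (0.048) or 35S:RPS4 replicate 1. The cause was not tested. ASB1 kept its direction in every refit, between 0.86 and 1.17. A change of the call threshold alone cannot move a log2FC and is not counted among these refits. The difference in the log2 ratio of TSA1 to TSB1 ran from -0.17 to 0.097 with 1 library left out, above 0 without Col-0 replicate 3.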
